A study of Mus musculus with 6 samples.

Results

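Among the genes measured in cultured mouse spermatogonial stem cells, 32 genes of the p53 response and of apoptosis were followed. They were chosen by gene name from a list that joins Trp53 itself, its relative Trp73 and the inhibitors that hold p53 down. The list also holds genes that p53 is known to switch on and other genes of apoptosis. All 32 were found among the 41053 gene names in the counts, and 31 had enough reads to be tested. Gdf15, a secreted stress cytokine, was the member left out, with 3, 0 and 7 reads in Ephb2-KO replicates 1, 2 and 3 and 6, 1 and 6 reads in wild-type replicates 1, 2 and 3.

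The cells were adult mouse germline stem cells grown in culture, and each of the 6 libraries came from 1 line. Every line had been electroporated with a plasmid carrying a green fluorescent protein reporter, sorted for fluorescence and subcloned. The 3 lines labelled Ephb2-KO had received that plasmid with a guide RNA against Ephb2, a receptor tyrosine kinase, and the 3 wild-type lines had received it without the guide. Passage was 20 for the lines numbered 1 and 2 and 18 for those numbered 3, in Ephb2-KO and wild-type alike. Each line is a subclone, so a line's own history is part of its values, and a parent culture common to same-numbered lines is not stated in the labels.

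Polyadenylated RNA was sequenced with strand kept, and reads per gene totalled between 21772404 and 34047758 per library. Levels are given as CPM, counts scaled to a common library size by the TMM method, and 3 reads corresponded to between 0.0803 and 0.147 CPM. The targeted gene was not lower on average in the libraries that carry its knockout label. Ephb2 stood at 37.1, 16.5 and 13.4 CPM in Ephb2-KO replicates 1, 2 and 3. In wild-type replicates 1, 2 and 3 it stood at 21.3, 27.1 and 10.8 CPM. It was thus lower in the Ephb2-KO line for replicate 2 and higher for replicates 1 and 3. Reads per gene cannot show whether Ephb2 was disrupted, so those libraries are named by label throughout. Germ cell markers were detected in every library, with 12 spermatogonial genes (Gfra1, Zbtb16, Ddx4 and Dazl among them) summing to 1783 to 3545 CPM in Ephb2-KO libraries and 2019 to 3513 CPM in wild-type libraries. Of 7 Sertoli markers 5 had enough reads to be tested (Sox9, Wt1, Gata4, Cldn11 and Rhox5), and Fshr was at 0 reads in all 6 libraries. Of 6 Leydig markers 1 (Star) had enough reads, and Hsd3b1 and Lhcgr were at 0 reads. Libraries of replicate 3 stood apart from the rest, as given beside the results below.

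p53 is a transcription factor that accumulates when DNA is damaged or cells are stressed. It switches on genes that stop the cell cycle, repair DNA or start death through mitochondria and death receptors. It also switches on Mdm2, which encodes the ubiquitin ligase that destroys p53, and so limits its own activity. In the testis, spermatogonia are among the cells most readily lost after irradiation, and p53 takes part in that loss.

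The members divided the libraries by replicate number and not by the Ephb2 label. Trp73 is left out of the counts by passage, since only its passage 20 libraries, where it was high, carried it over the filter on low counts. In 21 of the 30 other tested members expression was lower at passage 20 (replicates 1 and 2) than at passage 18 (replicate 3), in 2 it was higher and in 7 the test was not passed (edgeR quasi-likelihood test over all genes, Benjamini-Hochberg adjusted p under 0.05). Over all 15263 tested genes, 25% were lower at passage 20 and 23% higher by the same call. Any genes that passed the filter only through passage 20 libraries, as Trp73 did, are kept in the values over all genes. On simulated counts with known changes, this test made more false calls than the threshold allows. The median log2 difference was -0.84 over these 30 members and 0.035 over all tested genes. Past a log2 size of 1, 12 members were lower at passage 20 and 1 was higher, where 13.5% and 5.7% of all genes were. Between the Ephb2-KO label and wild-type, 0 members passed, against 0% of all genes.

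Summed over the 32 members, levels came to 2119.7 CPM in replicate 1 and 2290.2 CPM in replicate 2 of the Ephb2-KO lines, and to 2182 CPM in replicate 1 and 2104 CPM in replicate 2 of the wild-type lines. The passage 18 libraries held 4425 CPM in Ephb2-KO replicate 3 and 4220.0 CPM in wild-type replicate 3, more than in any library of passage 20 in either group. The CPM ranges of the 4 passage 20 libraries and the 2 passage 18 libraries did not overlap for 23 of the 30 members, lower at passage 20 for 21 and higher for 2. By the same rule 26.9% of all genes were lower and 26.6% higher. An exact two-sided permutation test of 4 libraries against 2 cannot go below p = 0.0667, which is the value it gave for Fas. Passage and replicate number 3 cannot be told apart in this design. The edgeR passage test took its error from differences within same-numbered pairs beyond the group term. Its p-values therefore leave out the spread between replicates 1 and 2, and they cover these lines only.

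Cell type markers moved with the same libraries. The 10 fibroblast or stromal markers summed to 3005 to 5271 CPM in the passage 20 libraries and 16853 to 19874 CPM in the passage 18 libraries, with a median log2 difference of -2.31 and 9 of 10 called lower at passage 20. The 12 spermatogonial markers summed to 3004 to 3545 CPM at passage 20 and 1783 to 2019 CPM at passage 18, with a median log2 difference of 0.76 and 11 of 12 called higher at passage 20. The Sertoli list summed to 74.7 to 93.6 CPM at passage 20 and 56.2 to 68.1 CPM at passage 18, the Leydig list to 1.47 to 2.12 CPM at passage 20 and 1.11 to 1.67 CPM at passage 18, and the macrophage or blood list to 7.07 to 20.9 CPM at passage 20 and 7.86 to 8.13 CPM at passage 18. Meiotic germ cell markers summed to 272 to 290.2 CPM at passage 20 and 152 to 156 CPM at passage 18. What part the share of fibroblast or stromal RNA plays in the members' levels was not tested, and in bulk RNA fewer cells of a type and less RNA per cell cannot be told apart.

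**Figure D1:**
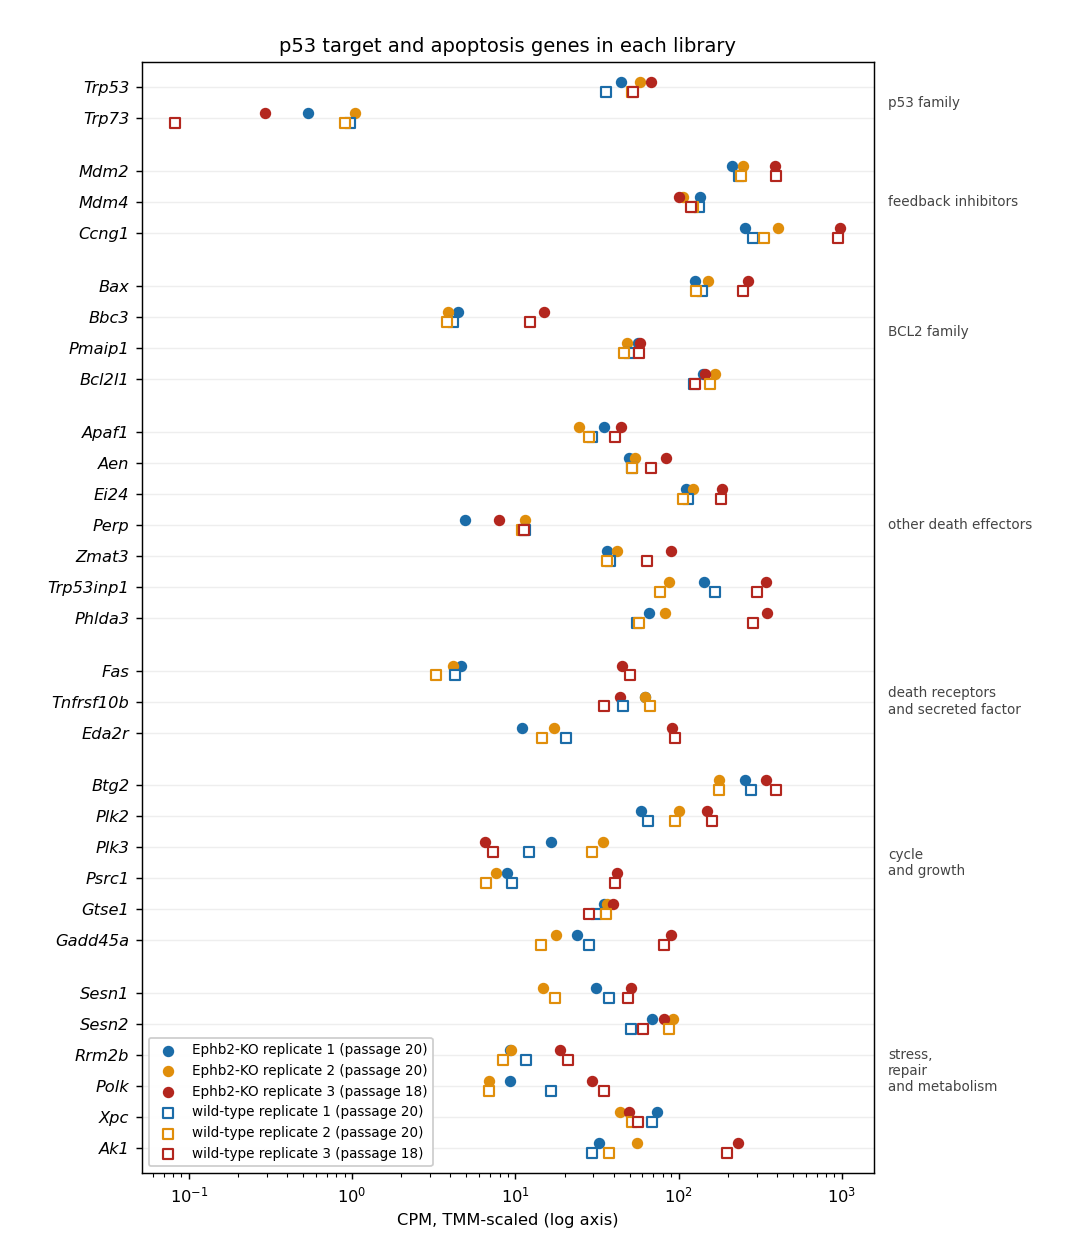
CPM of each tested member in each library on a log axis, with filled circles for Ephb2-KO lines, open squares for wild-type lines and colours for the replicate number. For Fas, Eda2r, Ak1, Phlda3, Psrc1 and Gadd45a both replicate 3 libraries lie to the right of the other 4. Filled and open symbols of 1 colour lie nearer to each other than the passages do for these genes. Their widest gap on this axis is that of Eda2r in replicate 1, at 11.0 CPM in Ephb2-KO and 20.5 CPM in wild-type.

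The p53 gene itself had the smallest difference of the 21 members that were lower at passage 20. Trp53 (chromosome 11, 69580359 to 69591873 in GRCm38) stood at 44.1 and 57.9 CPM in Ephb2-KO replicates 1 and 2, 35.7 and 51.5 CPM in wild-type replicates 1 and 2, and 67.5 and 52.3 CPM in Ephb2-KO and wild-type replicate 3. Replicates 3 and 2 of the wild-type lines were at nearly the same level, and the ranges of the passages overlapped. The log2 difference of passage 20 over passage 18 was -0.35 (SE 0.13, adjusted p = 0.0392), a call that was lost without Ephb2-KO replicate 2 (adjusted p = 0.0925), without Ephb2-KO replicate 3 (0.401), without wild-type replicate 3 (0.206), without the filter on low counts (0.0755) or with DESeq2 (0.0548). Trp73, which encodes the related factor p73, was near the counting floor. It stood at 0.536 and 1.04 CPM in Ephb2-KO replicates 1 and 2, 0.964 and 0.901 CPM in wild-type replicates 1 and 2, and 0.295 and 0.0825 CPM in Ephb2-KO and wild-type replicate 3. Those values came from 19, 23, 36 and 23 reads at passage 20 and 6 and 2 reads at passage 18, and no test by passage is given for it. The level of Trp53 averaged 11.7 CPM per kilobase of exon at passage 20 and 14.8 at passage 18, and that of Trp73 0.155 at passage 20 and 0.0341 at passage 18. Both Trp53 and Mdm4 have an annotated pseudogene (Trp53-ps, with 0 reads in all libraries, and Mdm4-ps, with 0 to 3 reads per library), and the counting command in the file headers does not ask for multi-mapping reads, so both genes may be undercounted.

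Of the genes that restrain p53, Mdm2 and Ccng1 were lower at passage 20 and Mdm4 did not pass. Ccng1 encodes cyclin G1, which recruits a phosphatase to Mdm2 and favours p53 breakdown, and it was the member with the most reads. It stood at 255 and 405 CPM in Ephb2-KO replicates 1 and 2, 286 and 332 CPM in wild-type replicates 1 and 2, and 977 and 949.8 CPM in Ephb2-KO and wild-type replicate 3. In each group replicate 3 held more than any other line, and the log2 difference was -1.61 (SE 0.13, adjusted p = 2.48e-06). Mdm2, the ubiquitin ligase of p53, stood at 213 and 247 CPM in Ephb2-KO replicates 1 and 2, 233 and 241 CPM in wild-type replicates 1 and 2, and 389.8 and 392 CPM in Ephb2-KO and wild-type replicate 3, a log2 difference of -0.75 (SE 0.12, adjusted p = 0.000383). Mdm4 encodes a related protein that blocks p53's activating domain, and it stood at 135 and 107 CPM in Ephb2-KO replicates 1 and 2, 133 and 123 CPM in wild-type replicates 1 and 2, and 101 and 119 CPM in Ephb2-KO and wild-type replicate 3 (log2 difference 0.18, SE 0.12, adjusted p = 0.257).

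In the BCL2 family, which decides whether mitochondria release cytochrome c, the pore former Bax and the trigger Bbc3 were lower at passage 20. Bax had the highest level of all members for its length, with 156 CPM per kilobase of exon at passage 20 and 295 at passage 18. It stood at 125 and 150.1 CPM in Ephb2-KO replicates 1 and 2, 138 and 128 CPM in wild-type replicates 1 and 2, and 264 and 248 CPM in Ephb2-KO and wild-type replicate 3, a log2 difference of -0.92 (SE 0.12, adjusted p = 0.000132). Bbc3, which encodes PUMA, a protein that frees Bax from its inhibitors, was far rarer. It stood at 4.48 and 3.87 CPM in Ephb2-KO replicates 1 and 2, 4.15 and 3.80 CPM in wild-type replicates 1 and 2, and 14.9 and 12.2 CPM in Ephb2-KO and wild-type replicate 3 (log2 difference -1.73, SE 0.21, adjusted p = 5.86e-05), and the ranges of the passages did not overlap for Bax or Bbc3. Pmaip1 encodes Noxa, another such trigger, and lay between 46.2 and 58.3 CPM in all 6 libraries (log2 difference -0.21, SE 0.13, adjusted p = 0.19). Bcl2l1, which encodes the death inhibitor Bcl-xL, lay between 125 and 166 CPM (log2 difference 0.11, SE 0.12, adjusted p = 0.459), and neither of these passed.

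Of the other death effectors, 6 of 7 were lower at passage 20, where 25% of all genes were. Phlda3, a blocker of the survival kinase Akt, led them. It stood at 65.6 and 82.1 CPM in Ephb2-KO replicates 1 and 2, 55.5 and 57.5 CPM in wild-type replicates 1 and 2, and 345 and 285 CPM in Ephb2-KO and wild-type replicate 3. Both replicate 3 libraries were above all others, and the log2 difference was -2.28 (SE 0.12, adjusted p = 1.28e-07). Trp53inp1, a stress protein that strengthens p53's response, stood at 144 and 87.3 CPM in Ephb2-KO replicates 1 and 2, 166 and 77.3 CPM in wild-type replicates 1 and 2, and 340.2 and 301 CPM in Ephb2-KO and wild-type replicate 3 (log2 difference -1.50, SE 0.13, adjusted p = 3.63e-06). Unlike Phlda3 it also differed within passage 20, lower in replicate 2 than in replicate 1. Zmat3, an RNA-binding zinc finger protein, stood at 36.6 and 42.0 CPM in Ephb2-KO replicates 1 and 2, 38.0 and 36.4 CPM in wild-type replicates 1 and 2, and 89.2 and 63.5 CPM in Ephb2-KO and wild-type replicate 3 (log2 difference -0.98, SE 0.14, adjusted p = 0.000225). Ei24, a membrane protein of the endoplasmic reticulum, Aen, a nuclease induced in apoptosis, and Apaf1, the scaffold on which caspase-9 is activated, had smaller log2 differences of -0.69 (SE 0.12, adjusted p = 0.000708), -0.55 (SE 0.13, adjusted p = 0.00546) and -0.54 (SE 0.15, adjusted p = 0.0106). The call for Aen was lost without Ephb2-KO replicate 3 (adjusted p = 0.234), and that for Apaf1 without Ephb2-KO replicate 3 (adjusted p = 0.193) or wild-type replicate 3 (adjusted p = 0.116). Perp, a membrane protein of cell junctions, stood at 4.90 and 11.5 CPM in Ephb2-KO replicates 1 and 2, 11.5 and 10.9 CPM in wild-type replicates 1 and 2, and 7.96 and 11.2 CPM in Ephb2-KO and wild-type replicate 3, with a log2 difference of -0.0050 (SE 0.26, adjusted p = 0.989).

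The death receptors held the largest difference of all members and also a gene that went the other way. Fas, the receptor whose ligand triggers caspase-8, stood at 4.62 and 4.14 CPM in Ephb2-KO replicates 1 and 2, 4.29 and 3.25 CPM in wild-type replicates 1 and 2, and 45.1 and 50.1 CPM in Ephb2-KO and wild-type replicate 3. All 4 passage 20 libraries were below 5 CPM and both passage 18 libraries were at 45 CPM or more. The log2 difference was -3.56 (SE 0.17, adjusted p = 1.12e-07), which ranked 57 from the lowest among the 15263 tested genes. Eda2r, the receptor for ectodysplasin A2, stood at 11.0 and 17.2 CPM in Ephb2-KO replicates 1 and 2, 20.5 and 14.6 CPM in wild-type replicates 1 and 2, and 91.0 and 94.97 CPM in Ephb2-KO and wild-type replicate 3 (log2 difference -2.56, SE 0.20, adjusted p = 5.42e-06). Tnfrsf10b, the receptor for the death ligand TRAIL, was higher at passage 20 in both groups: it stood at 62.1 and 62.2 CPM in Ephb2-KO replicates 1 and 2, 45.9 and 66.6 CPM in wild-type replicates 1 and 2, and 43.6 and 34.7 CPM in Ephb2-KO and wild-type replicate 3 (log2 difference 0.60, SE 0.15, adjusted p = 0.00712). That call was lost without Ephb2-KO replicate 3 (adjusted p = 0.062) or wild-type replicate 3 (adjusted p = 0.156). The level of Fas averaged 2.26 CPM per kilobase at passage 20 and 26.4 at passage 18, and that of Tnfrsf10b 18.7 at passage 20 and 12.3 at passage 18.

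Genes that slow the cell cycle or act in mitosis differed in both directions. Psrc1, a spindle protein, stood at 8.91 and 7.65 CPM in Ephb2-KO replicates 1 and 2, 9.48 and 6.62 CPM in wild-type replicates 1 and 2, and 41.8 and 40.9 CPM in Ephb2-KO and wild-type replicate 3 (log2 difference -2.35, SE 0.16, adjusted p = 8.67e-07). Gadd45a, a growth arrest protein induced by DNA damage, stood at 23.9 and 17.8 CPM in Ephb2-KO replicates 1 and 2, 28.1 and 14.3 CPM in wild-type replicates 1 and 2, and 89.5 and 81.4 CPM in Ephb2-KO and wild-type replicate 3 (log2 difference -2.06, SE 0.14, adjusted p = 9.11e-07). For both genes the passage 18 lines were above every passage 20 line. The kinase genes Plk2 and Plk3 moved in opposite directions. Plk2 stood at 58.4 and 101 CPM in Ephb2-KO replicates 1 and 2, 65.1 and 95.2 CPM in wild-type replicates 1 and 2, and 149 and 160.1 CPM in Ephb2-KO and wild-type replicate 3, and Plk3 at 16.5 and 34.3 CPM in Ephb2-KO replicates 1 and 2, 12.1 and 29.5 CPM in wild-type replicates 1 and 2, and 6.48 and 7.26 CPM in Ephb2-KO and wild-type replicate 3. Their log2 differences were -0.99 (SE 0.12, adjusted p = 5.36e-05) for Plk2 and 1.62 (SE 0.20, adjusted p = 8.58e-05) for Plk3, each with ranges that did not overlap. Btg2, an antiproliferative gene, stood at 255 and 176 CPM in Ephb2-KO replicates 1 and 2, 279 and 178 CPM in wild-type replicates 1 and 2, and 343 and 396 CPM in Ephb2-KO and wild-type replicate 3 (log2 difference -0.76, SE 0.12, adjusted p = 0.000336). Gtse1, which carries p53 out of the nucleus in G2 phase, lay between 28.1 and 39.5 CPM in all libraries and did not pass (log2 difference 0.053, SE 0.15, adjusted p = 0.799).

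Among genes of repair, metabolism and stress, Ak1, Polk, Sesn1 and Rrm2b were lower at passage 20. Ak1, an adenylate kinase, stood at 32.7 and 55.6 CPM in Ephb2-KO replicates 1 and 2, 29.4 and 37.7 CPM in wild-type replicates 1 and 2, and 231 and 198 CPM in Ephb2-KO and wild-type replicate 3 (log2 difference -2.50, SE 0.12, adjusted p = 1.16e-07). On its annotated exons, 4.44% of bases are shared with the same-strand gene Eng, and the counting command does not ask for reads over both genes. Polk, a polymerase that copies past damaged bases, stood at 9.27 and 6.89 CPM in Ephb2-KO replicates 1 and 2, 16.5 and 6.86 CPM in wild-type replicates 1 and 2, and 29.6 and 34.9 CPM in Ephb2-KO and wild-type replicate 3 (log2 difference -1.79, SE 0.19, adjusted p = 2.86e-05). Sesn1, a sestrin that restrains growth signalling through mTORC1, stood at 31.1 and 14.9 CPM in Ephb2-KO replicates 1 and 2, 37.3 and 17.5 CPM in wild-type replicates 1 and 2, and 51.0 and 48.9 CPM in Ephb2-KO and wild-type replicate 3 (log2 difference -1.09, SE 0.14, adjusted p = 0.0001). Its relative Sesn2 did not pass, at 68.2 and 92.8 CPM in Ephb2-KO replicates 1 and 2, 51.0 and 87.0 CPM in wild-type replicates 1 and 2, and 81.7 and 60.6 CPM in Ephb2-KO and wild-type replicate 3 (log2 difference 0.051, SE 0.13, adjusted p = 0.776). Rrm2b, the ribonucleotide reductase subunit that supplies nucleotides for repair, stood at 9.30 and 9.36 CPM in Ephb2-KO replicates 1 and 2, 11.6 and 8.43 CPM in wild-type replicates 1 and 2, and 18.7 and 20.9 CPM in Ephb2-KO and wild-type replicate 3 (log2 difference -1.04, SE 0.18, adjusted p = 0.000896). Xpc, the damage sensor of nucleotide excision repair, lay between 43.7 and 73.6 CPM (log2 difference 0.15, SE 0.13, adjusted p = 0.4).

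**Figure D2:**
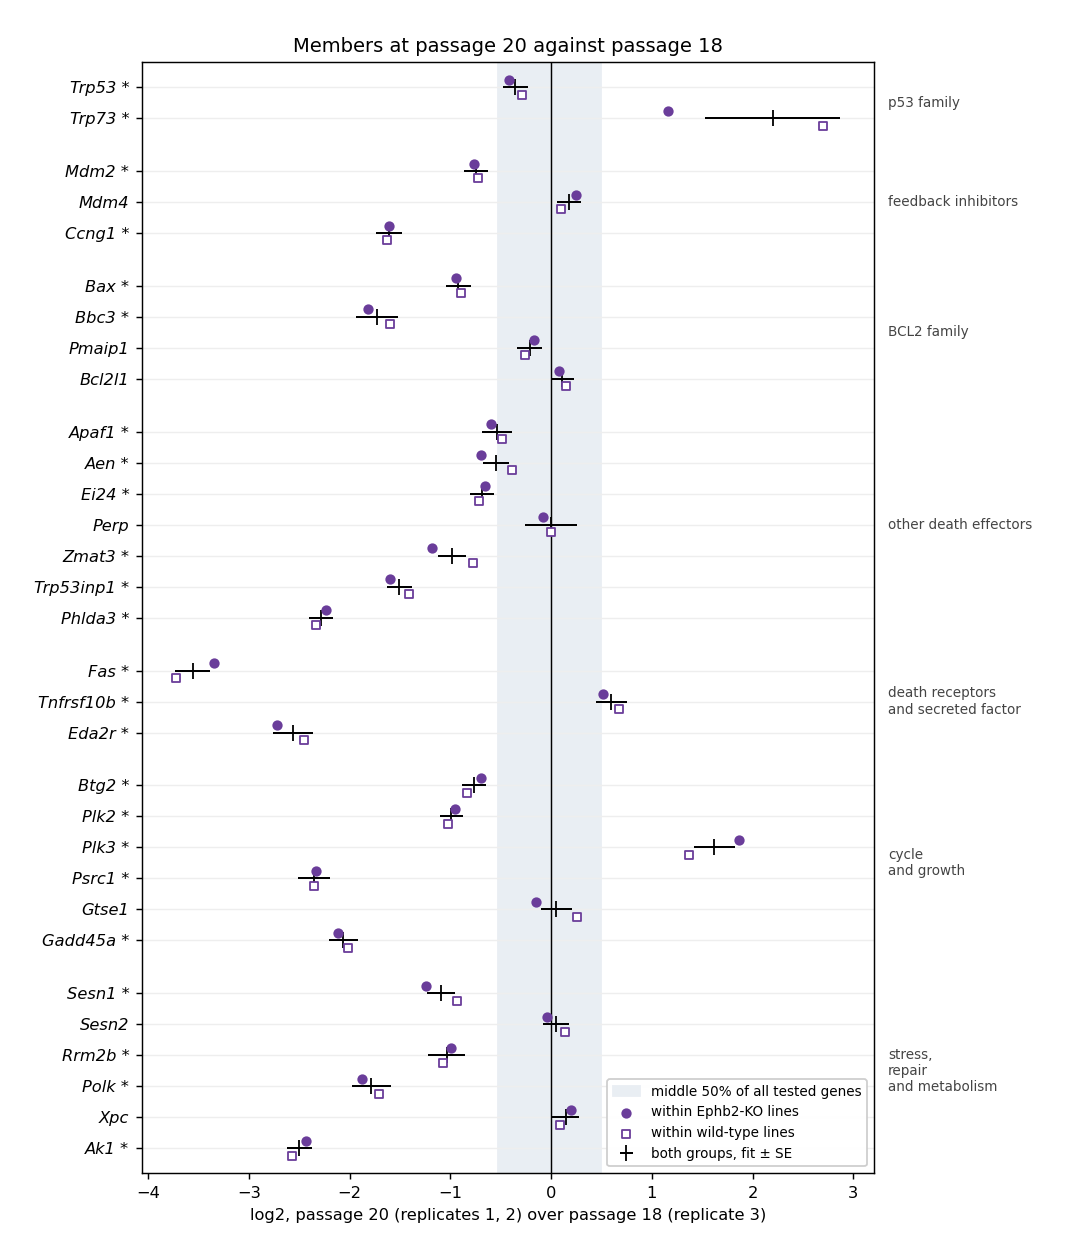
Log2 difference of passage 20 over passage 18 for each tested member, with filled circles within Ephb2-KO lines, open squares within wild-type lines and ticks with SE bars for the fit over both groups; asterisks mark adjusted p under 0.05 and the shaded band holds the middle 50% of all tested genes. Fas lies farthest left at -3.56, and circles and squares fall on the same side of 0 for the 24 marked members, of which Trp73 passed the filter on low counts only through its passage 20 libraries.

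The passage difference was also taken within each group, as far as 1 line at passage 18 per group allows. The median over all 31 tested members, Trp73 included, was -0.77 within Ephb2-KO lines and -0.77 within wild-type lines, where all tested genes had 0.0027 and 0.041. Fas differed by -3.34 within Ephb2-KO lines and -3.72 within wild-type lines, Phlda3 by -2.23 and -2.33, and Ccng1 by -1.61 and -1.62. In a test of whether the passage difference differs between the groups, 0 members passed at an adjusted p under 0.05 and 0 at an unadjusted p under 0.05, where 0% and 0.131% of all genes did (edgeR). That test had 1 passage 18 line per group. It held no term for replicate number, so differences between replicates 1 and 2 stayed in its error. It cannot show whether the passage difference was alike in the groups.

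Replicate number as a whole, tested with 2 degrees of freedom, separated 25 of the 30 members without Trp73, where 54.2% of all genes passed. With Trp73 the count was 26 of 31. It fell most when the replicate 3 library of either group was left out, and so did the count over all genes. Lines 1 and 2, both at passage 20, also differed from each other in 10 members. Replicate 2 was higher than replicate 1 in 4 members (8.14% of all genes) and lower in 6 (8.35%). The higher ones were Plk3, with a log2 difference of 1.16 (SE 0.21, adjusted p = 0.00549), Plk2 (0.67), Sesn2 (0.61) and Ak1 (0.56). The lower ones were Sesn1, with -1.08 (SE 0.17, adjusted p = 0.00263), Trp53inp1 (-0.92), Polk (-0.86), Gadd45a (-0.71), Btg2 (-0.59) and Xpc (-0.58). Without Ephb2-KO replicate 3 or without wild-type replicate 3, fewer members were called in this comparison, and so were fewer of all genes. Of the 10 fibroblast or stromal markers 1 was higher and 3 were lower in replicate 2 (median -0.090). Their sum was 5271 CPM in replicate 2 and 4751 CPM in replicate 1 of the Ephb2-KO lines, and 4160.1 CPM in replicate 2 and 3005 CPM in replicate 1 of the wild-type lines. Of the 12 spermatogonial markers 2 were higher and 2 lower in replicate 2, and the part of these cells in the 10 calls was not tested.

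p53 binds DNA as a tetramer at pairs of a 10-base element, the p53 half-site, whose sequence pattern reads the same on both strands. Promoter windows from 250 bases before to 50 bases after the annotated start (RefSeq, GRCm38.p6) were found for 25 of the 32 members, and 10 of these 25 held a match to the full half-site consensus. Over all 27025 genes with a window, 9.55% held one, and over all 32851 windows 8.36%, against 11 of 40 member windows (27.5%). Of the 18 members with a window that were lower at passage 20, 9 held a match, and of the 7 others 1 did (Gtse1). The list was built largely around p53 and genes that it switches on. A match is also only a string of letters, so the counts are descriptive. The matches that lie before a start are shown in capitals with their flanks, read 5′ to 3′ on the gene's strand, to set the sequence beside the levels above, and those of Aen and Gtse1 lie after it.
Ccng1 (chr11:40755437-40755496, minus strand): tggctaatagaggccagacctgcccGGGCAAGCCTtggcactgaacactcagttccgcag
Mdm2 (chr10:117710910-117710969, minus strand): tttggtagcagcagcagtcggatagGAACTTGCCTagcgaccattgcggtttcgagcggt
Bax (chr7:45467065-45467124, minus strand): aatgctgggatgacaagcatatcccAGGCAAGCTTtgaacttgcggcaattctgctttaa
Ei24 (chr9:36797310-36797369, minus strand): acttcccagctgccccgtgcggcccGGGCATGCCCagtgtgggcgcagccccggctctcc
Gadd45a (chr6:67037413-67037472, minus strand): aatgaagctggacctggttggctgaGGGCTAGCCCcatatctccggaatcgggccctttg
Sesn1 (chr10:41887241-41887300, plus strand): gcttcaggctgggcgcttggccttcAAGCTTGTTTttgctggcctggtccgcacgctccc
Polk (chr13:96519384-96519437, minus strand): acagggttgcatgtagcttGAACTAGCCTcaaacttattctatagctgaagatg
Trp53 (chr11:69580259-69580318, plus strand): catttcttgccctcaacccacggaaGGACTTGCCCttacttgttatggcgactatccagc

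The match began 185 bases before the RefSeq start of Ccng1, 186 before that of Mdm2, 201 before that of Bax and 40 before that of Gadd45a. Those of Gadd45a, Ei24, Sesn1 and Polk lie before a RefSeq start but inside the bounds of the gene whose reads were counted. Fas, Eda2r, Ak1, Phlda3 and Psrc1, the members with the largest differences, had windows with no full match, which says only that these letters are not in this stretch. Cdkn1a, the p53 target that encodes the cell cycle inhibitor p21 and is no member, held 2 matches in a single window, 73 and 51 bases before a start, shown here because it is the best known arrest gene of this response.
Cdkn1a (chr17:29090881-29090940, plus strand): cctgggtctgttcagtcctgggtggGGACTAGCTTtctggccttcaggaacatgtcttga
Cdkn1a (chr17:29090903-29090962, plus strand): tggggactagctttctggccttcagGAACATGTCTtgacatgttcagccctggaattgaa

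Among further p53 targets more genes were lower at passage 20 than higher, and among genes that act on p53 more were higher than lower. Both lists were chosen with earlier results of these data known, so they are described only. Of 39 tested further p53 targets 20 were lower at passage 20 and 4 higher, with a list median of -0.49. Over all tested genes 25% were lower and 23% higher, with a median of 0.035. Cdkn1a stood at 138 and 189 CPM in Ephb2-KO replicates 1 and 2, 126 and 147 CPM in wild-type replicates 1 and 2, and 887 and 756 CPM in Ephb2-KO and wild-type replicate 3 (log2 difference -2.47, SE 0.12, adjusted p = 8.81e-08). Dcxr, an enzyme of sugar metabolism, Steap3, a metal reductase, and Cd82, a membrane tetraspanin, had log2 differences of -2.56 (SE 0.14, adjusted p = 1.84e-07), -2.14 (SE 0.12, adjusted p = 2.38e-07) and -1.98 (SE 0.13, adjusted p = 6.26e-07). Of 26 tested p53 regulators 2 were lower at passage 20 and 14 higher, with a list median of 0.52. The damage kinase genes Atr and Prkdc had 1.07 (SE 0.15, adjusted p = 0.000181) and 0.93 (SE 0.14, adjusted p = 0.000344), and Ppp1r13b, which encodes a p53-binding protein, had 1.04 (SE 0.15, adjusted p = 0.000217). Rchy1, a ubiquitin ligase that acts on p53, was lower, at -0.74 (SE 0.12, adjusted p = 0.00059).

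Death genes outside the members are set against the same shares of all genes, 25% lower and 23% higher. Of 11 tested BCL2 family genes 4 were lower at passage 20 and 0 higher (list median -0.24). Bak1, the other pore former, and Bad, an inhibitor of Bcl-xL, had log2 differences of -2.17 (SE 0.18, adjusted p = 3.17e-06) and -1.70 (SE 0.14, adjusted p = 3.13e-06), and the survival genes Mcl1 and Bcl2l2 had -0.45 (SE 0.12, adjusted p = 0.00998) and -0.38 (SE 0.13, adjusted p = 0.0346). Of 30 caspases, adaptors and inhibitors 13 were lower and 8 higher (list median -0.20), the higher ones near the share of all genes. Casp8, the caspase that Fas activates, stood at 3.47 and 6.53 CPM in Ephb2-KO replicates 1 and 2, 3.56 and 3.84 CPM in wild-type replicates 1 and 2, and 24.9 and 23.3 CPM in Ephb2-KO and wild-type replicate 3 (log2 difference -2.51, SE 0.21, adjusted p = 3.66e-06). Casp12, Casp1 and the receptor gene Tnfrsf1a, which act in inflammation and stress, had -2.74 (SE 0.15, adjusted p = 1.83e-07), -2.30 (SE 0.17, adjusted p = 1.76e-06) and -1.82 (SE 0.12, adjusted p = 5.54e-07). The fibroblast or stromal and spermatogonial marker values given above moved with these lists too, and their part was not tested.

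**Figure D3:**
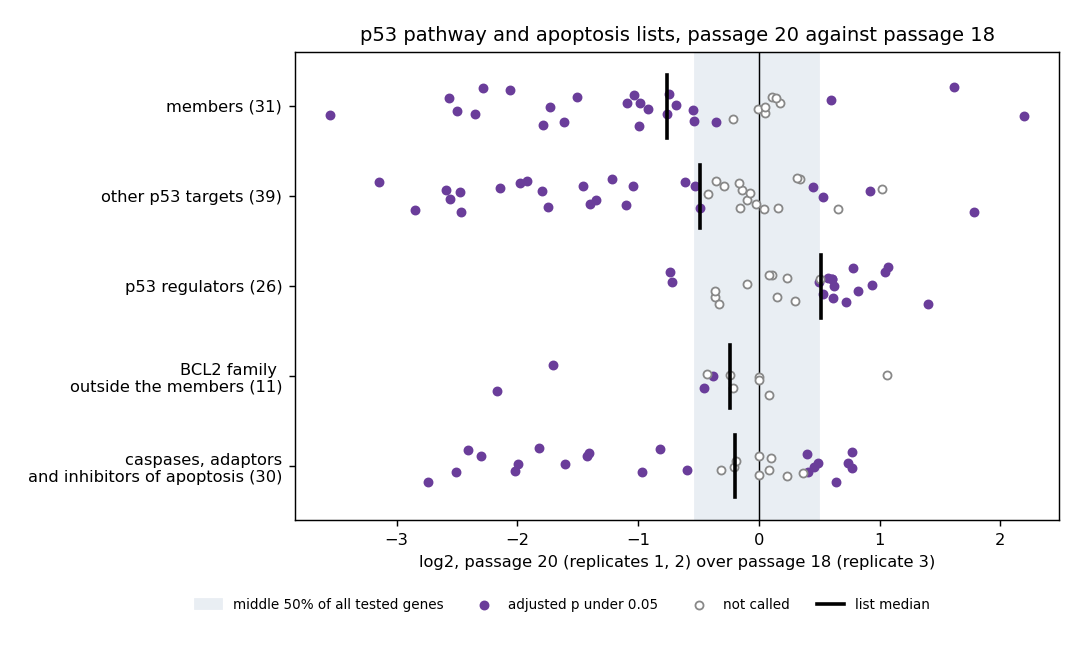
Log2 difference of passage 20 over passage 18 for each tested gene of the members and of 4 related lists, with filled points for adjusted p under 0.05, black bars for list medians and a shaded band for the middle 50% of all tested genes. The members and the other p53 targets lie mostly left of 0 (medians -0.76, Trp73 included, and -0.49) and the p53 regulators mostly right of it (median 0.52).

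No member passed the test for the Ephb2 label. All 31 had an adjusted p of 1 in the edgeR fit without a block, 0 had an unadjusted p under 0.05 (0.21% of all genes), and 0 had CPM ranges that were separate between the groups (0.839% of all genes higher and 1.55% lower). In this fit 19 members lay above 0 and 12 below, with a median of 0.067 against 0.015 for all genes. Same-numbered libraries deviated together, so a blocked fit, with number as a term, is given as well. In that fit 0 members passed (0.0262% of all genes), the median was 0.057 against 0.015, and 21 members lay above 0 (53% of all genes). The label's member median was -0.052, 0.094 and 0.062 within the pairs of replicate 1, 2 and 3.

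Trp53 averaged 56.5 ± 11.8 CPM in libraries labelled Ephb2-KO and 46.5 ± 9.37 CPM in wild-type libraries (SD, n = 3 each). It was higher in the Ephb2-KO line of each of the 3 pairs, but the groups overlapped, and the p of an exact permutation test (two-sided) was 0.4, with 0.1 the smallest that 3 libraries against 3 allow. The log2 fold change was 0.28 (SE 0.26) without the block and 0.28 (SE 0.12) with it (edgeR, blocked unadjusted p = 0.0406, adjusted p = 0.741). In the blocked fit its 95% interval ran from 0.014 to 0.55. Mdm2 averaged 283 ± 93.9 CPM in libraries labelled Ephb2-KO and 289 ± 89.5 CPM in wild-type libraries (SD, n = 3 each), with a blocked log2 fold change of -0.037 (SE 0.11) and an interval of -0.28 to 0.21. Mdm4 had -0.14 (SE 0.11) in the same fit and Trp73 had 0.020 (SE 0.51), with an interval of -1.11 to 1.15. The interval for Trp73 takes in a log2 change of 1 in either direction, and that for Mdm2 does not.

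With the block, 5 members had an unadjusted edgeR p under 0.05, against 6.47% of all genes. Of them 4 were higher and 1 lower in Ephb2-KO lines, against 4.38% and 2.09% of all genes. Each had an adjusted p of 0.741 and is given as values only. Phlda3 stood at 65.6, 82.1 and 345 CPM in Ephb2-KO replicates 1, 2 and 3 and 55.5, 57.5 and 285 CPM in wild-type replicates 1, 2 and 3, a blocked log2 fold change of 0.34 (SE 0.12) that lay above 0 in 3 of 3 pairs. Sesn2 stood at 68.2, 92.8 and 81.7 CPM in Ephb2-KO replicates 1, 2 and 3 and 51.0, 87.0 and 60.6 CPM in wild-type replicates 1, 2 and 3, with 0.31 (SE 0.12), above 0 in 3 of 3 pairs. Ak1 stood at 32.7, 55.6 and 231 CPM in Ephb2-KO replicates 1, 2 and 3 and 29.4, 37.7 and 198 CPM in wild-type replicates 1, 2 and 3, with 0.31 (SE 0.12), also above 0 in 3 of 3 pairs. The lower one was Perp, which stood at 4.90, 11.5 and 7.96 CPM in Ephb2-KO replicates 1, 2 and 3 and 11.5, 10.9 and 11.2 CPM in wild-type replicates 1, 2 and 3. Its blocked value was -0.55 (SE 0.25), below 0 in the pairs of replicates 1 and 3 and above 0 in that of replicate 2. Trp53 was the other of the higher ones. The fibroblast or stromal markers summed to 4751 to 19874 CPM in Ephb2-KO libraries and 3005 to 16853 CPM in wild-type libraries, with a blocked median of 0.37 on the log2 scale, and their part in these values was not tested.

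The next member by blocked p was Polk, at 9.27, 6.89 and 29.6 CPM in Ephb2-KO replicates 1, 2 and 3 and 16.5, 6.86 and 34.9 CPM in wild-type replicates 1, 2 and 3, with -0.36 (SE 0.19). In the fit without the block, Perp, Sesn2, Trp53, Gtse1, Bcl2l1 and Zmat3 had the smallest unadjusted p, from 0.265 to 0.509. Gtse1 stood at 35.1, 36.3 and 39.5 CPM in Ephb2-KO replicates 1, 2 and 3 and 31.3, 36.1 and 28.1 CPM in wild-type replicates 1, 2 and 3, with an unblocked log2 fold change of 0.22 (SE 0.21). Bcl2l1 stood at 142, 166 and 145 CPM in Ephb2-KO replicates 1, 2 and 3 and 125, 155 and 126 CPM in wild-type replicates 1, 2 and 3, with 0.16 (SE 0.19). Zmat3 had 0.28 (SE 0.41). For each of these genes the Ephb2-KO and wild-type values overlapped. In 3 of 3 pairs, 8 members were higher in Ephb2-KO lines (15.6% of all genes), namely Trp53, Bbc3, Pmaip1, Bcl2l1, Phlda3, Gtse1, Sesn2 and Ak1, and 1, Btg2, was lower (12.3%).

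For members that differed between replicates, the error of the label comparison was smaller with the block. Fas, at 4.62, 4.14 and 45.1 CPM in Ephb2-KO replicates 1, 2 and 3 and 4.29, 3.25 and 50.1 CPM in wild-type replicates 1, 2 and 3, had an unblocked log2 fold change of -0.099 (SE 1.30) and a blocked one of 0.077 (SE 0.17) with an interval of -0.31 to 0.46. Bax had a blocked value of 0.057 (SE 0.12) with an interval of -0.20 to 0.32, Bbc3 0.15 (SE 0.20) with -0.30 to 0.60 and Ccng1 0.054 (SE 0.13) with -0.22 to 0.33. Within passage 20 alone, 0 members passed, where 0 of 15728 tested genes did. With 1 library left out, which leaves its same-numbered partner unmatched, the unblocked member median changed sign: it was -0.33 without Ephb2-KO replicate 3, -0.049 without wild-type replicate 1 and -0.10 without wild-type replicate 2, against 0.23, 0.18 and 0.32 without Ephb2-KO replicate 1, Ephb2-KO replicate 2 and wild-type replicate 3.

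**Figure D4:**
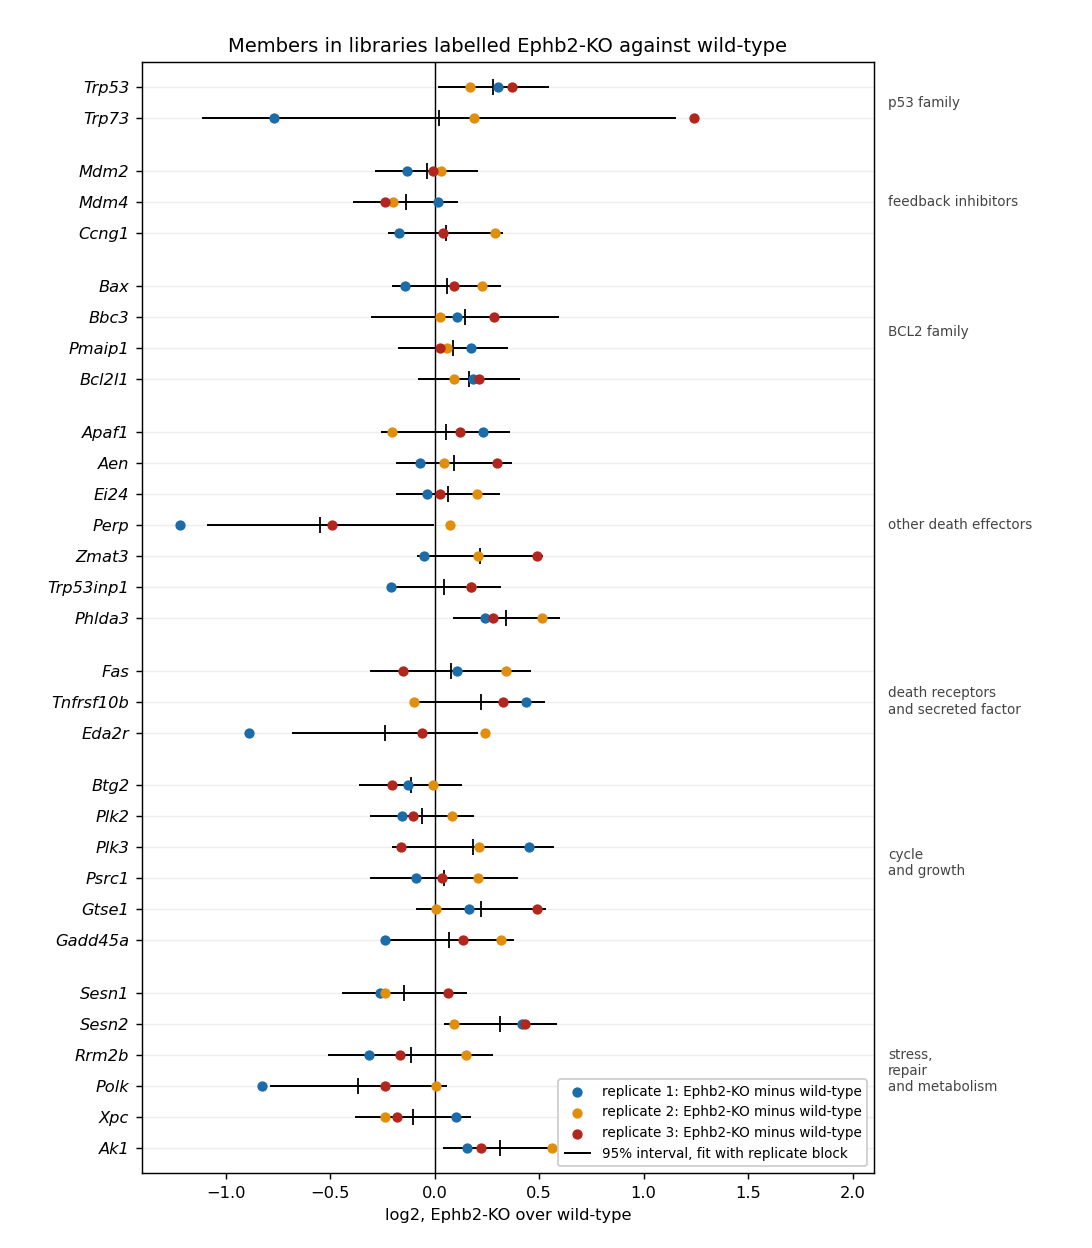
Log2 difference of the library labelled Ephb2-KO over the wild-type library of the same replicate number for each tested member (coloured points), with ticks and lines for the estimate and 95% interval of the blocked fit. The intervals hold 0 for 26 of 31 members, and those of Trp53, Phlda3, Sesn2 and Ak1 lie above it and that of Perp below it.

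No gene of the other lists passed the test for the Ephb2 label. In the blocked fit 0 genes of the further p53 targets, p53 regulators, BCL2 family and caspase lists passed, and their medians were 0.094, -0.041, 0.050 and 0.024. Cdkn1a stood at 138, 189 and 887 CPM in Ephb2-KO replicates 1, 2 and 3 and 126, 147 and 756 CPM in wild-type replicates 1, 2 and 3, with a blocked log2 fold change of 0.24 (SE 0.11). The genes with the smallest blocked p were Crip2 (0.50, SE 0.14) and Ccnd1 (0.40, SE 0.11) among the further targets, Chek1 (-0.31, SE 0.13) and Ppp1r13l (0.57, SE 0.25) among the regulators, Bcl2l11 (0.28, SE 0.15) and Bak1 (0.26, SE 0.18) in the BCL2 family, and Cflar (0.36, SE 0.15) and Tnfrsf1a (0.27, SE 0.12) among the caspase list. None of them had an adjusted p under 0.05 by edgeR. CPM ranges were separate between the groups for 1 of 39 further targets, Trp53i13, at 22.8, 18.7 and 22.3 CPM in Ephb2-KO replicates 1, 2 and 3 and 17.0, 15.9 and 17.4 CPM in wild-type replicates 1, 2 and 3, and for 1 of 26 regulators, Chek1, at 29.5, 29.4 and 26.3 CPM in Ephb2-KO replicates 1, 2 and 3 and 36.5, 34.7 and 34.3 CPM in wild-type replicates 1, 2 and 3, named after their values were seen. Over all genes 0.839% were higher and 1.55% lower by that rule. No gene of the BCL2 family and caspase lists had separate ranges.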

How the data were processed

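RNA from 6 lines of cultured mouse spermatogonial stem cells, 3 labelled Ephb2-KO and 3 wild-type, was measured as 1 library each. The authors deposited unnormalized counts for each gene name, made with featureCounts 1.4.6-p4 over GENCODE vM3 exons with strand setting 2, per the file headers. That command does not ask for multi-mapping reads or for reads over several features. STAR and FastQC and the build GRCm38.p3 are named in the submitters' processing notes, with versions of the tools not given in the sources used here. The tests used edgeR 4.0.16 under R 4.3.3 (filterByExpr, 15263 genes tested; TMM scaling; glmQLFit with robust estimation; Benjamini-Hochberg adjustment over all tested genes, threshold 0.05). Standard errors are the log2 difference divided by the square root of F. Group was tested without a covariate and, as an alternative, with the replicate number as a block; replicate number, passage 20 over passage 18 and replicate 2 over replicate 1 were tested in the model with both terms. DESeq2 1.42.0, its size factors, no filter, passage as a covariate and leaving out libraries were alternatives. The members, the gene lists and the tests were chosen with earlier results of these data known. Counts by passage without Trp73, the interaction test, the fits without a replicate number and the alternatives of the passage comparison were chosen after seeing the data. Same-numbered libraries correlated at 0.596, 0.736 and 0.850 in their deviations from the group means, against at most 0.079 with another number, so by the bound of 0.1 the numbers, which come from the sample titles, pair the libraries. Biological variation (BCV) came to 0.166 in the blocked fit and 0.440 in the other. No 2 libraries of a group agreed within sampling noise. Values in every library were given for the members with the smallest p in each comparison, the highest and lowest per kilobase and the p53 core; the other members of the list are named by role. From the further lists up to 4 genes past the threshold were named for the passage comparison and up to 2 by blocked p for the label. Levels per kilobase divide CPM by the deposited exon length. The tests were checked on simulated counts with known changes, where most changes were recovered and the group (with the block), replicate number and passage tests each made more false calls than the threshold allows. Counting floors of 3 reads cover counting error only. The labels do not say whether the lines of a group came from separate animals or cultures, so p-values cover at most the spread between these lines. In fits with the replicate number they cover only the spread within same-numbered pairs.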

Additional observations from a re-analysis of the deposited data

How the results depend on the processing

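For the Ephb2 label, 0 members were called in any alternative run. Over all genes the count was 0 in the main analysis, 4 with the replicate block, 3 with DESeq2, 18 with DESeq2 and the replicate block, and 56, 3 and 4 with the replicate block and without both libraries of replicates 1, 2 and 3 in turn. The block changed no call of a member. The member median ranged from -0.33 to 0.32 when 1 library was left out of the fit without the block and was -0.025 with the block and without replicate 2. Leaving out 1 library gave 4442 to 10084 genes for replicate number (8276 with all) and 17 to 27 members (26 with all). For passage 20 over passage 18 it gave 3376 to 8719 genes (7323 with all) and 20 to 24 members (24 with all, Trp73 included). For replicate 2 over replicate 1 it gave 1401 to 3555 genes (2516 with all) and 5 to 10 members (10 with all). Leaving out a replicate 3 library leaves 1 library under that number. No count moved by over 1.5 times with DESeq2 size factors, without the filter or with DESeq2 in these 3 comparisons. Some uncalled values of the label comparison changed sign: with the replicate block it was 0.020 for Trp73 and 0.077 for Fas; with DESeq2 and the replicate block it was 0.21 for Trp73 and 0.086 for Fas; with passage as a covariate it was 0.16 for Trp73 and 0.085 for Fas; within passage 20 it was -0.0099 for Aen, -0.074 for Trp53inp1, 0.22 for Fas and -0.024 for Gadd45a. When 1 library was left out of the fit without the block, which leaves its same-numbered partner unmatched, the label's log2 fold change ran from -0.15 to 0.26 for Aen, -1.002 to 1.67 for Ak1, -0.15 to 0.26 for Apaf1, -0.32 to 0.44 for Bax, -0.68 to 0.96 for Bbc3, -0.40 to 0.18 for Btg2, -0.66 to 0.83 for Ccng1, -1.62 to 1.18 for Eda2r, -0.20 to 0.34 for Ei24, -2.13 to 2.25 for Fas, -0.98 to 1.05 for Gadd45a, -0.33 to 0.26 for Mdm2, -0.84 to 1.54 for Phlda3, -0.42 to 0.36 for Plk2, -0.50 to 0.98 for Plk3, -1.26 to 0.39 for Polk, -1.20 to 1.28 for Psrc1, -0.55 to 0.32 for Rrm2b, -0.59 to 0.25 for Sesn1, -0.0043 to 0.48 for Tnfrsf10b, -0.65 to 0.65 for Trp53inp1, -0.63 to 0.33 for Trp73, -0.34 to 0.069 for Xpc and -0.22 to 0.59 for Zmat3. For passage 20 over passage 18, members that were not called changed sign: without the filter Perp had 0.019, and with 1 library left out values ran from -0.15 to 0.26 for Gtse1, -0.30 to 0.22 for Perp and -0.042 to 0.14 for Sesn2. The 23 called members other than Trp73 kept their direction under every alternative run. The calls of Trp53, Aen, Apaf1 and Tnfrsf10b were lost in some runs, as given above. The causes were not tested.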
